A study of Mus musculus with 4 samples.

Results

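The genes described here encode the heat shock proteins, the other chaperone families that work with them and the heat shock transcription factors. They were chosen by name from the expression table of a study of mouse splenic CD4+ T cells: 99 of its 34745 genes carried a symbol of the HSP90, HSP70, HSP110, small HSP, J-domain, chaperonin, BAG or HSF series or belonged to a short set of co-chaperones, with pseudogenes left out. The set was picked out because heat shock genes stood high in the Th0 library, so every Th0 level and every ratio that involves Th0 is given below as a description. The mice were wild type, of strain C57BL/6, in all 4 groups. Naive cells were taken straight from the spleen. The Th0 culture received antibodies to CD3 and CD28 for 3 days, and the Th17 and Treg cultures ran for 3 days in their own differentiation conditions, whose cytokines the labels leave out. Each group was 1 library, so no difference below has a replicate check and no test between conditions was possible. Of the 99 genes, 85 had at least 10 counts in a library, 5 had 1 to 9 counts (Cct8l1, Dnajb7, Dnajc22, Hsf5 and Hspa12b) and 9 had none in any library (Dnajb8, Dnajc5b, Dnajc5g, Hsf3, Hspb2, Hspb3, Hspb7, Hspb8 and Hspb9).

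Chaperones bind unfolded or partly folded proteins and help them to fold, move to their compartment or be degraded. HSP70 proteins do so in cycles of ATP hydrolysis that J-domain proteins start and that HSP110 and BAG proteins end by exchanging the nucleotide, while HSP90 takes over partly folded kinases and receptors, and barrel-shaped chaperonins enclose their clients. A part of these genes is always on. Others are induced when misfolded protein accumulates: heat shock factor 1 (Hsf1) then binds heat shock elements, which are inverted repeats of the letters GAA and TTC, and the ER has a separate unfolded protein response that raises its own chaperones. T cell activation calls for much new protein, and HSP90 clients in T cells include kinases of the antigen receptor pathway.

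The promoters shown next belong to 6 genes that stood above every other library in Th0 and to Dnaja1 and Hsph1, which were high in both naive and Th0. Each is the 250 bases before a start site on the gene's strand, written 5′ to 3′, from RefSeq (GRCm38.p6). Capitals mark the letters GAANNTTC or TTCNNGAA, the inverted pairs of heat shock element units, and where both overlap they form a run of at least 3 units. The Hspe1 run holds 3 pairs, that is 2 overlapping matches of 3 units, and the Dnajb6 run holds 2 pairs and 1 such match. The genes are Hspe1 (chr1:55087898-55088147, plus strand), Dnajb6 (chr5:29735648-29735897, plus), Hspa1b (chr17:34959239-34959488, minus), Hspa1a (chr17:34972157-34972406, minus), Hspb1 (chr5:135887669-135887918, plus), Dnajb1 (chr8:83607925-83608174, plus), Dnaja1 (chr4:40722218-40722467, plus) and Hsph1 (chr5:149636337-149636586, minus).
Hspe1: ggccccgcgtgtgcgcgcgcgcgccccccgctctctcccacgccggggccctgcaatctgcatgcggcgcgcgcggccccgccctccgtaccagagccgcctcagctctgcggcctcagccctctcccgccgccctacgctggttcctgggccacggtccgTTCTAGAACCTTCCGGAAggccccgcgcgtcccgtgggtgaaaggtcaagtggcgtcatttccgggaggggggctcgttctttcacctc
Dnajb6: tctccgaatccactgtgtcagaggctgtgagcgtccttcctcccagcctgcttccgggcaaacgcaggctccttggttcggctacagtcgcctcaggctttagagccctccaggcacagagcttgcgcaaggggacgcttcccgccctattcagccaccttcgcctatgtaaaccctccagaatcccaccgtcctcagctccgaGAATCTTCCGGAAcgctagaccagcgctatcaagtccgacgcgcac
Hspa1b: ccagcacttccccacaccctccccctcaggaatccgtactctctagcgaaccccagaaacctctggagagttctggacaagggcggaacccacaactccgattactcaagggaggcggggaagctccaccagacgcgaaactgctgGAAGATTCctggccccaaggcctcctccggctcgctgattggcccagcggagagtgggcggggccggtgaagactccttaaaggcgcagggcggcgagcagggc
Hspa1a: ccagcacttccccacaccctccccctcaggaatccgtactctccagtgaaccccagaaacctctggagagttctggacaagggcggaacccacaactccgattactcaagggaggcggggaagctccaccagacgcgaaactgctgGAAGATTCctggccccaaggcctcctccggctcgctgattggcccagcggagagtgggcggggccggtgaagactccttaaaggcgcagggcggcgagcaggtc
Hspb1: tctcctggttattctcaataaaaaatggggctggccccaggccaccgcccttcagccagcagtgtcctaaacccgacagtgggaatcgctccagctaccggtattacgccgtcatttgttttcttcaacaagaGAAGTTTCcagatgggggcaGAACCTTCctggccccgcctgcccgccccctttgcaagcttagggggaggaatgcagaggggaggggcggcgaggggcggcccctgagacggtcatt
Dnajb1: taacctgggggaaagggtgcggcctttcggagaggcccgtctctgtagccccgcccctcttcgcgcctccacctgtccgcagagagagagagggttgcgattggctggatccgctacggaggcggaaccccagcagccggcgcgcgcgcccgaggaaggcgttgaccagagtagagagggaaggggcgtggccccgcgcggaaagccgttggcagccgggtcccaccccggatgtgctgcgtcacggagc
Dnaja1: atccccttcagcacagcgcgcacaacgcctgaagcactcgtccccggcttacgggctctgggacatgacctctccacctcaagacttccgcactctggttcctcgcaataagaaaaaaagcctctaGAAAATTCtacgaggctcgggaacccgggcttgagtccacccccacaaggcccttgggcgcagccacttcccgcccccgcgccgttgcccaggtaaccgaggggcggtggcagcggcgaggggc
Hsph1: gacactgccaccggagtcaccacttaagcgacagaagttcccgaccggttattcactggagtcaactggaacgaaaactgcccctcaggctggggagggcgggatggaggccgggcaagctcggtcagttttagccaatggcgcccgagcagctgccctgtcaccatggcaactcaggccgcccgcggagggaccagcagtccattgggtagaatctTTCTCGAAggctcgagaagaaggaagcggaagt

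RefSeq promoters were matched by symbol for 81 of the 99 genes. Hsp90aa1, Hsp90ab1, Hspa8 and Hsf1 were among the 18 without one. A run of 3 units, which is GAANNTTC with GAA again 2 bases further on, was searched on both strands. It stood in 3 of those 81 genes (3.70%), namely Dnajb6, Hspd1 and Hspe1, and in 139 of 27025 genes (0.514%) with a promoter in the table. Hspd1 and Hspe1 are neighbours on opposite strands, and their windows overlap by 215 bases, so they hold the same letters. An inverted pair alone, GAANNTTC or TTCNNGAA, stood in 19 of the 81 genes (23.5%) and in 3932 of all genes (14.5%). Hspa1a, Hspa1b, Dnaja1 and Hsph1 each held 1 pair and Hspb1 held 2. Dnajb1, Hspa1l, Hspa5, Chordc1 and Ahsa1 held neither pattern in these 250 bases. A match describes letters in a fixed window and not a bound site.

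Total counts lay between 10256627 and 12414372 per library. Levels below are CPM, counts scaled to library depth with TMM factors, on which 1 count was worth 0.0766 to 0.114 CPM. In each comparison, genes with at least 10 counts in 1 of the 2 libraries were compared, and a call, higher or lower, needed a ratio of CPM plus 1 of at least 2-fold together with a 95% counting interval of the count ratio that left out equality. That interval covers counting error only. Summed over 7 T cell markers, naive had 2710 CPM and Th0 3582, next to 2929 in Th17 and 3186 in Treg. Markers of other spleen cells had their highest sums in naive: 12 B cell genes summed to 4027, 479.5, 242 and 112 CPM, 11 macrophage and monocyte genes to 4120, 31.9, 36.9 and 57.5, and 8 neutrophil genes to 1444, 1.83, 10.6 and 5.41. The sums of 7 dendritic cell genes were 340, 9.02, 17.9 and 27.9 CPM, and of 7 erythroid and platelet genes 151, 6.74, 9.58 and 8.75. No marker was at 0 in naive; Cd209a, Siglech and Elane were at 0 in every culture. All 12 B cell, 11 macrophage and 7 dendritic cell genes were called lower than naive in each culture. The 8 neutrophil genes were too in Th0 and Treg, but only 7 in Th17, where Ly6g had 6.59 CPM, next to 5.53 in naive. Of the 7 erythroid and platelet genes, 7 were called lower in Th0 and 6 in Th17 and in Treg. Itga2b had 12.5 CPM in naive, 8.73 in Th17 and 8.12 in Treg. The part of these other cells in the naive levels of the chaperone genes was not tested. In these bulk libraries fewer cells that express a gene and less RNA per cell cannot be told apart.

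Heat shock and chaperone genes did not move as a block. Among the 85 genes with enough counts, 45 (52.9%) had their highest CPM in Th0, 25 (29.4%) in naive, 7 in Th17 and 8 in Treg, against 30.4% and 35.4% of all 14779 such genes that were highest in Th0 and naive. With library totals in place of TMM, 33 (38.8%) were highest in Th0, against 20.8% of all genes. The rule called 8 genes higher in Th0 than in each of the other libraries: Hspa1a, Hspa1b, Hspa1l, Hspb1, Hspe1, Hsp90aa1, Dnajb1 and Dnajb6. It called 6 lower in Th0 than in each (Bag5, Dnajb5, Dnajb12, Dnajb14, Dnajc11 and Dnajc30). Naive was above each culture for 3 genes (Hspa5, Dnajb9 and Ahsa1) and below each for 9 (Cct6b, Dnajc18, Hsf2, Hsf4, Hspa2, Hspa4l, Hspb6, Hspb11 and Tcp1). Over all genes Th0 was above each of the others for 5.68% and below each for 8.56%, and naive was above each for 12.6% and below each for 6.88%.

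**Figure D1:**
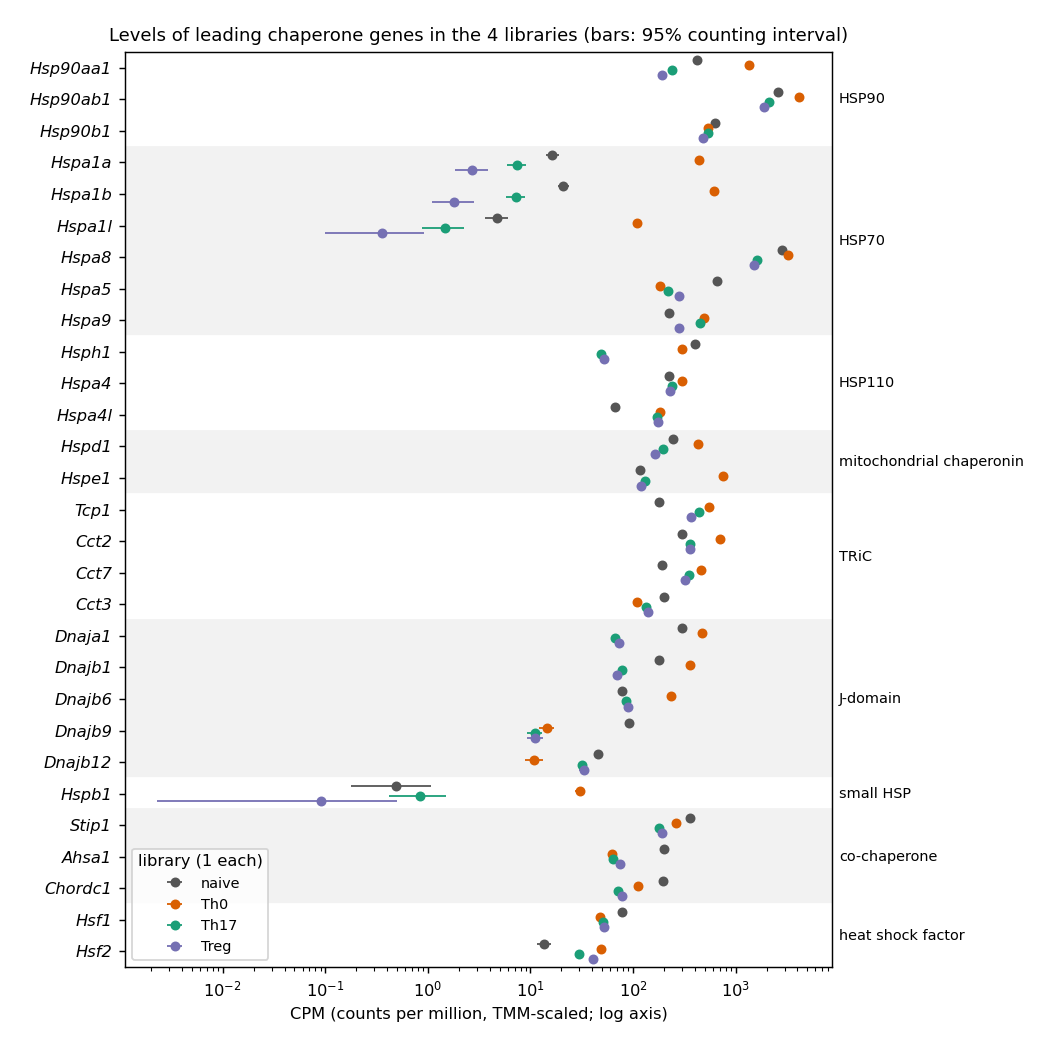
CPM of 29 leading genes on a log axis, 1 coloured point per library with its 95% counting interval, grouped by family. Hspa1b in Th0 (611) stands far right of its other points (20.8, 7.20 and 1.80), whereas for Hsph1 the naive and Th0 points (401 and 297) lie together, away from Th17 and Treg.

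Counted by comparison, 22 of 84 genes were called higher in Th0 than in naive and 14 lower, where 18.5% of all genes tested were higher and 27.2% lower; the median log2 ratio was 0.33, against -0.13 over all genes. With library totals the split became 17 higher and 19 lower, and the median over all genes -0.38. Th17 against Th0 gave 9 higher and 17 lower of 84 genes, where 20.4% and 12.2% of all genes were called, with medians of -0.32 and 0.10; library totals gave 11 and 12, with a median of 0.36 over all genes. Treg against Th0 gave 9 higher and 16 lower of 85, where 20.2% and 11.9% were called, with medians of -0.36 and 0.08; library totals gave 14 and 12, with 0.39 over all genes. These 3 comparisons share the Th0 library, so their values are not independent of each other. Against naive, 13 of 84 genes were called higher in Th17 and 15 lower (15.6% and 17.4% of all genes), and 11 of 84 higher in Treg and 12 lower (14.9% and 16.8%); both share the naive library with Th0 over naive. Between Th17 and Treg only Hspa1a and Hspa1b were called, both higher in Th17, of 85 genes compared, where 1.94% of all genes were called higher and 1.21% lower. Both stood below 10 CPM in either library. Leaving out the 14 genes that have a near-identical copy at another locus, into which reads could be split, left 14 of 70 higher in Th0 than in naive, 7 of 70 lower in Th17 than in Th0 and 7 of 71 lower in Treg than in Th0. These counts were near the shares over all genes, copies kept, of 18.5%, 12.2% and 11.9%. With the authors' FPKM (read counts per length and depth), 10 were lower in Th17 than in Th0 and 9 lower in Th17 than in naive.

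**Figure D2:**
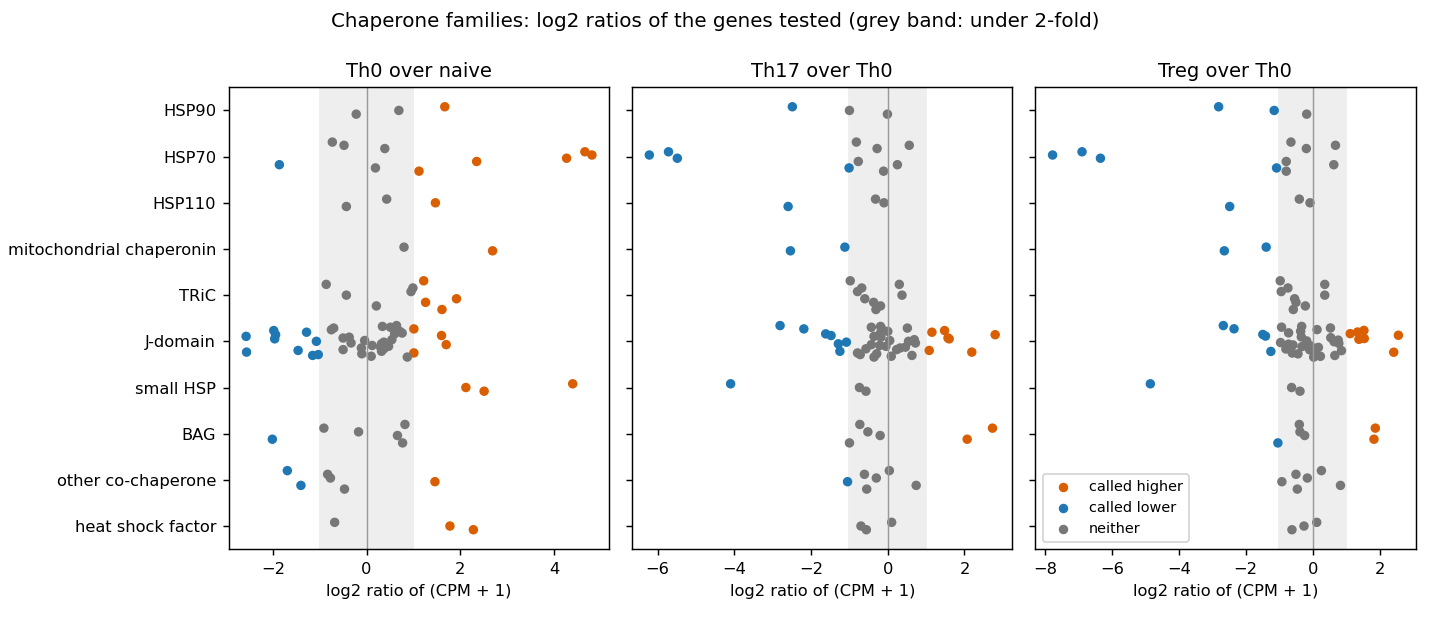
Log2 ratios of CPM plus 1 for every gene compared, by family, for Th0 over naive, Th17 over Th0 and Treg over Th0; the grey band marks less than 2-fold, and colour marks the call. HSP70 genes reach 4.81 in Th0 over naive and the J-domain row holds calls on both sides in each panel.

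The stress-inducible HSP70 genes Hspa1a and Hspa1b and their relative Hspa1l stood far higher in Th0 than in the other libraries. Hspa1b stood at 611 CPM in Th0, next to 20.8 in naive, 7.20 in Th17 and 1.80 in Treg. Hspa1a followed with 16.4 CPM in naive and 439 in Th0, against 7.36 in Th17 and 2.71 in Treg. Hspa1l, which lies head to head with Hspa1a on chromosome 17, had 109 CPM in Th0, next to 4.72 in naive, 1.46 in Th17 and 0.361 in Treg. All 3 were lowest in Treg and second in naive. Over naive, Hspa1b was 29.3-fold (interval 25.9 to 33.4) higher in Th0, and it was 84.8-fold (interval 69.2 to 105) lower in Th17 and 339-fold (interval 219 to 555) lower in Treg than in Th0. Hspa1a and Hspa1b are 99.2% identical over 2201 aligned bases and share 1716 of the 2918 stretches of 50 bases in Hspa1a (58.8%), so the split of reads between them is uncertain, while their sum does not depend on that split. Hspa1l shares 232 of 2423 such stretches (9.57%) with Hspa1a, and the Hspa1l to Hspa1a count ratio was 0.289 in naive and 0.249 in Th0, next to 0.198 in Th17 and 0.133 in Treg, with overlapping counting intervals.

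The constitutive gene moved little between naive and Th0. Hspa8, the cognate protein HSC70 that is always present, had 2813 CPM in naive and 3209 in Th0, against 1598 in Th17 and 1513 in Treg. Naive and Th0 were both above the differentiated cultures, by about the size of the rule: the calls of Th17 and Treg below Th0 were lost with library totals, and that of Th17 also with upper quartile factors. The sum of Hspa1a and Hspa1b counts per Hspa8 count, a ratio inside each library that no scaling touches, was 0.327 in Th0 and 0.0132 in naive, with 0.00911 in Th17 and 0.00298 in Treg.

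**Figure D3:**
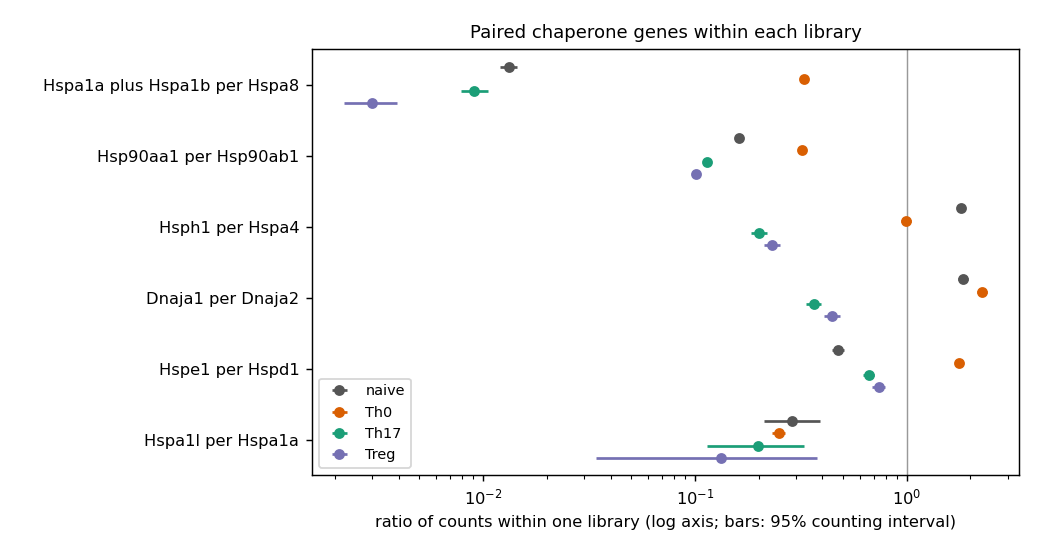
Count ratios of paired genes inside each library on a log axis, 1 point per library with its 95% counting interval. The inducible to constitutive HSP70 ratio is 0.327 in Th0 and at most 0.0132 elsewhere, while the Hsph1 to Hspa4 ratio separates naive and Th0 (1.81 and 0.991) from Th17 and Treg (0.201 and 0.232).

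HSP70 members of other compartments had patterns of their own. Hspa5, the ER chaperone BiP, was lowest in Th0, with 182 CPM in Th0, next to 663 in naive, 217 in Th17 and 283 in Treg. BiP was thus 3.64-fold (interval 3.45 to 3.84) lower in Th0 than in naive. Hspa9, the mitochondrial HSP70 mortalin, had 224 CPM in naive and 489 in Th0, against 454 in Th17 and 283 in Treg, and was called higher in Th0 and Th17 than in naive, though the first call was lost with library totals and the second with DESeq2 and upper quartile factors. Hspa2, known best from spermatogenesis, was low, with 21.1 CPM in Th0, next to 3.34 in naive, 11.95 in Th17 and 11.8 in Treg. Hspa14 (85.1 to 112 CPM) and the ER-associated Hspa13 (17.2 to 28.1 CPM) differed by less than the rule in every pair of libraries, and Hspa12a had at most 4.64 CPM. Of the 10 HSP70 genes compared, 5 were higher in Th0 than in naive and 1 lower, 4 were lower in Th17 than in Th0 and 4 lower in Treg. Of all genes, 18.5% were higher in Th0 than in naive and 27.2% lower, 12.2% were lower in Th17 than in Th0 and 11.9% lower in Treg.

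The HSP110 proteins release nucleotide from HSP70. Hsph1, the heat-inducible member, had 401 CPM in naive and 297 in Th0, against 48.3 in Th17 and 52.5 in Treg. It did not share the Th0 peak: naive was highest, Th0 next, and both were far above Th17 and Treg. It was 6.16-fold (interval 5.64 to 6.73) lower in Th17 and 5.66-fold (interval 5.17 to 6.21) lower in Treg than in Th0. Hspa4, the constitutive member, had 299.8 CPM in Th0, next to 222 in naive, 240.1 in Th17 and 227 in Treg, and no pair of libraries was called. The Hsph1 to Hspa4 count ratio accordingly went from 1.81 in naive and 0.991 in Th0 to 0.201 in Th17 and 0.232 in Treg. Hspa4l, the remaining member, was lowest in naive, with 66.1 CPM in naive and 185 in Th0, against 172 in Th17 and 175 in Treg, and nearly level among the cultures.

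Hsp90ab1, the constitutive cytosolic HSP90 gene, had 4185 CPM in Th0, next to 2593 in naive, 2093 in Th17 and 1879 in Treg. Hsp90aa1, the inducible form, had 421 CPM in naive and 1339 in Th0, against 238 in Th17 and 191 in Treg. Both were highest in Th0 and lowest in Treg. Hsp90aa1 was 3.18-fold (interval 3.08 to 3.29) higher in Th0 than in naive, 5.63-fold (interval 5.41 to 5.86) lower in Th17 and 7.02-fold (interval 6.71 to 7.36) lower in Treg. For Hsp90ab1 only Treg against Th0 was called, by 2.23-fold (interval 2.19 to 2.27), and not with library totals. Hsp90aa1 per Hsp90ab1 was 0.162, 0.320, 0.114 and 0.101 in counts. A near-identical copy of Hsp90aa1 in the table, Gm12346, held 2001, 1778, 1332 and 906 counts, so some Hsp90aa1 reads may stand there. The ER form Hsp90b1, known as GRP94, was flat, with 543 CPM in Th0, next to 632 in naive, 541 in Th17 and 479 in Treg.

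The mitochondrial chaperonin consists of the HSP60 barrel, from Hspd1, and its HSP10 lid, from Hspe1. The neighbours differed in size of change. Hspe1 had 116 CPM in naive and 756 in Th0, against 129 in Th17 and 120.5 in Treg. Hspd1 had 428 CPM in Th0, next to 245 in naive, 196 in Th17 and 163 in Treg. Both were highest in Th0, but Hspe1 was 6.49-fold (interval 6.13 to 6.87) higher in Th0 than in naive, and Hspd1 1.75-fold (interval 1.66 to 1.83), which missed the rule. The Hspe1 to Hspd1 count ratio was 0.475 (naive), 1.77 (Th0), 0.662 (Th17) and 0.739 (Treg). Both genes were called lower in Th17 and in Treg than in Th0, with the Hspd1 call in Th17 lost under library totals. The loci overlap by 112 bases, both have near-identical copies, and 1 copy with a row of its own, Hspd1-ps3, held 919, 692, 830 and 571 counts. Together with Dnajb6 these were the genes whose promoters held the 3-unit run shown above. Their log2 ratios of Th0 over naive were 2.69 (Hspe1), 0.80 (Hspd1) and 1.60 (Dnajb6). The 66 compared genes whose searched promoters lacked the run ranged from -2.57 to 4.81, with a median of 0.26. Hspa1b, Hspa1a, Hspb1 and Hspa1l, all without the run, stood above Hspe1. A link between the run and the Th0 level was not tested.

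TRiC, the cytosolic chaperonin that folds actin and tubulin, is built from 8 different subunits in equal number. Their levels did not move together. Tcp1, the alpha subunit, had 178 CPM in naive and 548 in Th0, against 441 in Th17 and 367 in Treg. Tcp1 overlaps Mrpl18 on the other strand by 645 bases (483, 903, 470 and 491 counts). It also has a near-identical stretch in Acat2 (174, 504, 776 and 832 counts), so the place of some reads is uncertain. Cct2 had 702 CPM in Th0, next to 300.3 in naive, 356 in Th17 and 357 in Treg. Cct7 had 191 CPM in naive and 459 in Th0, against 354 in Th17 and 324 in Treg. Those 3 were called higher in Th0 than in naive, Cct2 and Cct7 not with library totals. Cct4 (434 CPM in Th0, next to 218 in naive, 269.8 in Th17 and 259 in Treg) and Cct5 (278 CPM in naive and 538 in Th0, against 310.2 in Th17 and 280.2 in Treg) had the same order of naive and Th0 just short of the rule. Cct8 was nearly flat, with 237 CPM in Th0, next to 205 in naive, 209 in Th17 and 204 in Treg. Other subunits stood the other way round, with Th0 lowest. Cct3 had 199 CPM in naive and 109 in Th0, against 135 in Th17 and 140.0 in Treg, and was called lower in Th0 than in naive with library totals only. Cct6a had 125 CPM in Th0, next to 169 in naive, 161 in Th17 and 160.4 in Treg. Cct6b, a second zeta subunit gene known from testis, was called higher in Th0 than in naive but had at most 3.08 CPM. No TRiC gene was called between Th0 and Th17 or Treg, except with DESeq2 factors, which gave 1 lower in Th17 and 2 in Treg. As a group, TRiC took 0.179% of all counts in naive and 0.269% in Th0, against 0.235% in Th17 and 0.226% in Treg.

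J-domain proteins bring clients to HSP70 and start its ATP hydrolysis, and they were called in both directions in each comparison with Th0. Of 39 compared with naive, Th0 had 4 higher and 10 lower, where 18.5% and 27.2% of all genes were called. Library totals gave 2 and 11, and upper quartile factors 2 and 10. Against Th0, 7 of 39 were higher in Th17 and 7 lower, where 20.4% and 12.2% of all genes were called. In Treg 7 of 40 were higher than in Th0 and 5 lower, where 20.2% and 11.9% were called. With library totals the splits against Th0 were 8 and 5, and 10 and 4. Dnajb1, Dnaja1, Dnajb6 and Dnajb4 were highest in Th0. Dnajb1, the classical HSP40, had 179 CPM in naive and 361 in Th0, against 78.1 in Th17 and 69.98 in Treg. Dnaja1 had 469 CPM in Th0, next to 301 in naive, 66.1 in Th17 and 72.96 in Treg. Dnajb6, which holds back protein aggregation, had 77.5 CPM in naive and 237 in Th0, against 84.5 in Th17 and 88.6 in Treg. Dnajb1 and Dnajb6 were called higher in Th0 than in each other library, although Dnajb1 over naive was only 2.01-fold (interval 1.91 to 2.13) and was not called with library totals or upper quartile factors. Dnaja1 was called lower in both differentiated cultures than in naive as well as Th0, by 7.10-fold (interval 6.60 to 7.65) in Th17 against Th0. Its relative Dnaja2 was not called in any pair of libraries: Dnaja1 per Dnaja2 was 1.84, 2.27, 0.364 and 0.444 in counts. Dnajb4 followed the same order, with 51.6 CPM in Th0, next to 33.7 in naive, 16.1 in Th17 and 17.7 in Treg.

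Several other J-domain genes were lowest in Th0, and others had patterns of their own. Dnajb12 and Dnajb14 anchor HSC70 at the ER membrane, and both were lowest in Th0. Dnajb12 had 45.7 CPM in naive and 10.9 in Th0, against 32.1 in Th17 and 33.2 in Treg. Dnajb14 had 14.5 CPM in Th0, next to 36.7 in naive, 33.5 in Th17 and 38.1 in Treg. Dnajb5 had 22.95 CPM in naive and 5.25 in Th0, against 42.4 in Th17 and 35.9 in Treg, which made it 8.08-fold (interval 5.97 to 11.2) higher in Th17 than in Th0. These 3 were called lower in Th0 than in each other library. The mitochondrial genes Dnajc11 (14.96 CPM in Th0, next to 61.05 in naive, 47.3 in Th17 and 40.7 in Treg) and Dnajc30 (13.7 CPM in naive and 1.48 in Th0, against 10.3 in Th17 and 12.3 in Treg) had the same dip. Dnajc30 lies across part of Wbscr22 on the other strand, whose counts also dipped (413, 175, 406 and 340), and reads of the overlap cannot be told apart. Dnajc10, an ER reductase that breaks disulphide bonds, was higher in both differentiated cultures than in Th0, with 46.9 CPM in Th0, next to 66.7 in naive, 142 in Th17 and 138 in Treg. Dnajb9, an ER partner of BiP, was called higher in naive than in each culture, as Hspa5 was, with 90.5 CPM in naive and 14.4 in Th0, against 10.96 in Th17 and 11.2 in Treg. Dnajc3, another BiP partner, had 234 CPM in Th0, next to 188 in naive, 97.6 in Th17 and 98.03 in Treg. Its calls below Th0 in both differentiated cultures were lost with library totals. Dnajc18 had its lowest level in naive, with 18.2 CPM in naive and 61.3 in Th0, against 45.2 in Th17 and 40.4 in Treg. Dnajc7, a partner of both HSP70 and HSP90, had 125 CPM in Th0, next to 278 in naive, 193 in Th17 and 197 in Treg; it overlaps Cnp, whose counts were 2596, 753, 2134 and 1625. Dnajc14 was lower in Th0 than in naive too, with 113 CPM in naive and 53.5 in Th0, against 77.9 in Th17 and 84.1 in Treg. Smaller calls were Dnajc4 higher in Th0 than in naive, and Dnajc15 and Dnajc17 lower in Th17 than in Th0, all at 30.2 CPM or less. The Dnajc4 call was lost with library totals (log2 ratio 0.75) and upper quartile factors (0.98), and the Dnajc15 call with library totals (-0.79). Dnajb3, Dnajc6 and Dnajc28 were also called but stayed under 10 CPM. The other 19 of 40 J-domain genes were called in none of the 3 comparisons, with log2 ratios between -0.93 and 0.87.

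Small HSPs hold unfolded proteins without ATP. Hspb1 (HSP27 in human, HSP25 in mouse) had few counts outside Th0, with 267 counts in Th0 but 6 in naive, 11 in Th17 and 1 in Treg, or 30.5 CPM in Th0, next to 0.488 in naive, 0.843 in Th17 and 0.0902 in Treg. Its Th0 level was 62.4-fold (interval 28.3 to 172) above naive. Against Th17 it was 36.2-fold (interval 19.9 to 73.4) higher, and against Treg, with that 1 count, 338-fold with an interval of 60.2 to 13407. A near-identical copy in the table, Hsp25-ps1, had 2, 36, 4 and 3 counts, so it was highest in Th0 too. Hspb6 (2.85 CPM in naive and 20.9 in Th0, against 13.8 in Th17 and 15.8 in Treg) and Hspb11 (44.7 CPM in Th0, next to 9.52 in naive, 26.3 in Th17 and 28.6 in Treg), the latter also a subunit of the intraflagellar transport complex, were lower in naive than in each culture and not called among the cultures.

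BAG proteins exchange the nucleotide of HSP70, and each links it to another process. Bag1 had 79.7 CPM in naive and 142 in Th0, against 85.2 in Th17 and 107 in Treg. Bag6, which guards tail-anchored proteins, had 364 CPM in Th0, next to 212 in naive, 182 in Th17 and 177 in Treg, and its call in Treg below Th0 was lost with library totals. Bag3, an HSF1 target that works with small HSPs, showed no Th0 peak, with 24.6 CPM in naive and 21.7 in Th0, against 14.9 in Th17 and 16.4 in Treg, and no pair of libraries was called. Bag5 was lowest in Th0, with 5.83 CPM in Th0, next to 26.5 in naive, 27.7 in Th17 and 23.3 in Treg. Bag2 had its highest level in Th17, with 3.01 CPM in naive and 1.14 in Th0, against 13.3 in Th17 and 6.85 in Treg, and its Th17 level was 11.6-fold (interval 6.16 to 24.6) above Th0.

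The 4 HSP90 co-chaperones of the set were highest in naive, unlike Hsp90aa1. Ahsa1, which activates the HSP90 ATPase, had 61.7 CPM in Th0, next to 201 in naive, 63.3 in Th17 and 74.3 in Treg. Its counting intervals in Th0 (56.6 to 67.1) and Th17 (59.0 to 67.8) overlapped. Stip1, which joins HSP70 and HSP90, had 363 CPM in naive and 263 in Th0, against 179.5 in Th17 and 191 in Treg. Chordc1 had 111 CPM in Th0, next to 197 in naive, 72.1 in Th17 and 77.7 in Treg. Fkbp4, an immunophilin of steroid receptor complexes, had 246 CPM in naive and 144 in Th0, against 117 in Th17 and 129 in Treg. Stip1, Chordc1 and Fkbp4 thus shared the order naive, Th0, Treg, Th17. Of the 4, Ahsa1 was called lower in Th0 than in naive, by 3.26-fold (interval 2.96 to 3.58), and with library totals Chordc1 and Fkbp4 were called too. None of the 4 was called between Th0 and Th17 or Treg. All 4 were called lower in Th17 than in naive, with log2 ratios of -1.65 (Ahsa1), -1.44 (Chordc1), -1.07 (Fkbp4) and -1.01 (Stip1). The Stip1 call was lost with library totals. The HSP70 exchange factor Hspbp1, at 26.0 CPM in naive, was called 2.82-fold (interval 2.20 to 3.64) lower in Th0, while Hspbap1, which binds HSP27, had 54.03 CPM in Th0, next to 19.05 in naive, 25.7 in Th17 and 28.05 in Treg, highest in Th0.

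Of the 5 heat shock factor genes 3 had enough counts. Hsf1, the main stress sensor, was highest in naive and level among the cultures, with 77.2 CPM in naive and 47.9 in Th0, against 51.4 in Th17 and 52.2 in Treg, and no pair of libraries was called. Hsf2, which forms mixed trimers with Hsf1, had 49.2 CPM in Th0, next to 13.6 in naive, 29.9 in Th17 and 40.9 in Treg. Hsf4 had 1.79 CPM in naive and 12.6 in Th0, against 8.198 in Th17 and 7.85 in Treg. Both were called lower in naive than in each culture, and neither was called among the cultures.

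Cytosolic heat-inducible genes were also described as a list of 13, which was chosen with earlier results of these data known: Hspa1a, Hspa1b, Hsph1, Dnajb1, Hsp90aa1, Hspb1, Bag3, Dnaja1, Hspa8, Chordc1, Stip1, Ahsa1 and Fkbp4. Against naive, 5 were higher in Th0 and 1 lower (18.5% and 27.2% of all genes), with a median log2 ratio of 0.19. With library totals these were 4 and 3, with a median of -0.09. The same list had 0 higher and 9 lower in Th17 than in naive (15.6% and 17.4% of all genes), with a median of -1.07. In Treg 0 of 12 were higher and 8 lower (14.9% and 16.8%), with -1.34. Against Th0 the list had 8 lower in Th17 (median -2.19) and 8 lower in Treg (-2.35), where 12.2% and 11.9% of all genes were lower. The list was thus divided in Th0 against naive, and no member was called higher in either differentiated culture than in naive or Th0 under any of the 4 scalings. Its counts made up 0.535% of the library in naive and 0.627% in Th0, against 0.262% in Th17 and 0.258% in Treg. A large part of these counts was on Hspa8, the constitutive gene described above. Hspa8 held 34563 of the list's 63695 counts in naive and 28095 of 64396 in Th0, against 20860 of 32506 in Th17 and 16772 of 26512 in Treg. The naive values stand beside the markers of other spleen cells given above, whose part was not tested. The list of 8 ER lumen genes took 0.189%, 0.0980%, 0.119% and 0.127% of all counts, with the smallest share in Th0. These shares rest on library totals. With TMM factors its summed CPM was 1834 (naive), 1149 (Th0), 1134 (Th17) and 1175 (Treg). On that scale the cultures were nearly level and Th0 was not the lowest. Of all counts, HSP90 took 0.376%, 0.517%, 0.302% and 0.276%, and HSP70 0.398%, 0.442%, 0.254% and 0.240%. All 99 genes together took 1.49%, 1.77%, 1.20% and 1.16%.

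**Figure D4:**
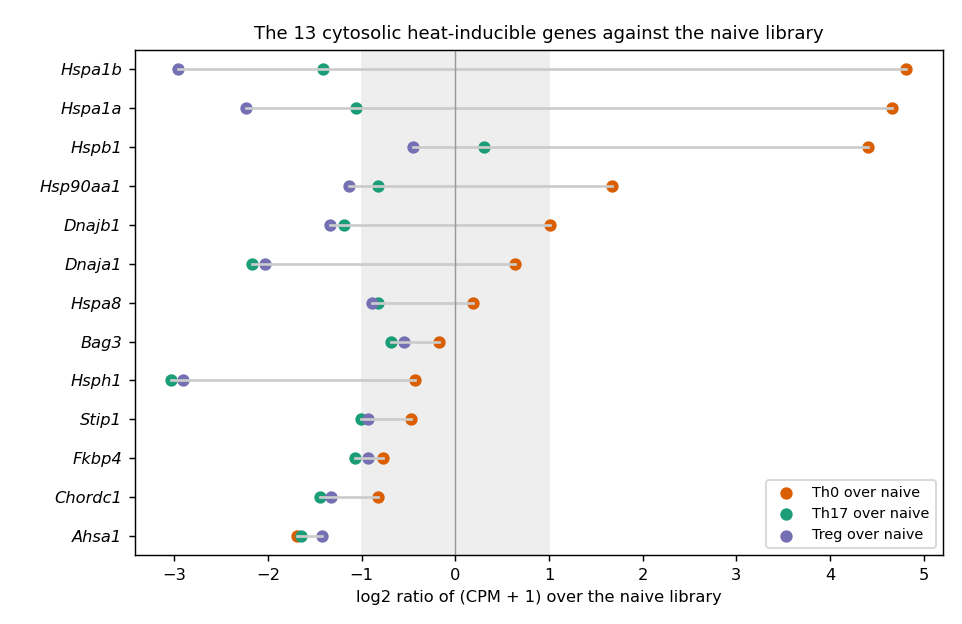
Log2 ratios of CPM plus 1 over the naive library for the 13 cytosolic heat-inducible genes, 1 point per culture, ordered by Th0 over naive; the grey band marks less than 2-fold. Th0 points run from the upper right (Hspa1b, 4.81) to the lower left (Ahsa1, -1.69), and no Th17 or Treg point lies right of the band.

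**Figure D5:**
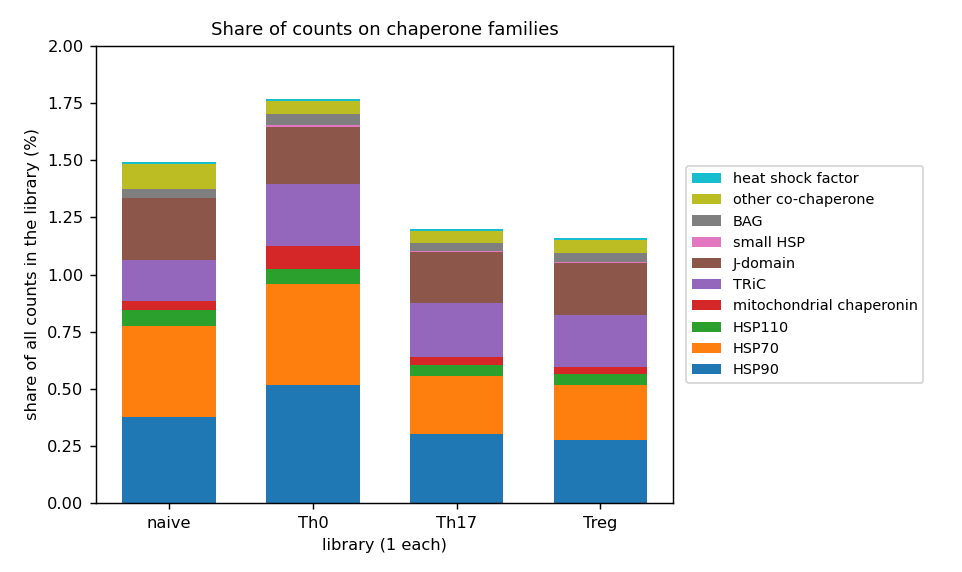
Stacked bars of the share of all counts, in percent, that each chaperone family took in each library. The total is 1.49% in naive and 1.77% in Th0, next to 1.20% in Th17 and 1.16% in Treg, with HSP90 and HSP70 the widest layers in all 4.

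Other chaperone genes that the name rule leaves out were taken from a list of 30. Of these, 5 were called higher in Th0 than in naive and 1 lower, beside 18.5% and 27.2% of all genes; library totals gave 4 and 2. Of 29 compared with Th0, Th17 had 1 higher and 7 lower, beside 20.4% and 12.2% of all genes. Treg had 0 higher and 6 lower, beside 20.2% and 11.9%. With library totals the splits against Th0 were 1 and 3, and 2 and 2. Ahsa2, a relative of Ahsa1, had 102 CPM in Th0, next to 64.1 in naive, 35.2 in Th17 and 33.5 in Treg. Ubb, a polyubiquitin gene and a known heat shock target, had 613 CPM in naive and 1210.0 in Th0, against 429 in Th17 and 437 in Treg. Clpb, a mitochondrial disaggregase, had 67.8 CPM in Th0, next to 24.8 in naive, 27.6 in Th17 and 27.1 in Treg. These 3 were called lower in both differentiated cultures than in Th0, but for Clpb neither call was made with library totals (log2 ratios -0.97 in Th17 and -0.96 in Treg). Lonp1, the mitochondrial protease, was higher in Th17 than in Th0, with 77.98 CPM in naive and 102 in Th0, against 288 in Th17 and 182 in Treg. The prefoldin subunit Pfdn6 was lower in Th17, with 43.7 CPM in Th0, next to 24.01 in naive, 19.4 in Th17 and 21.5 in Treg, and was not called with library totals (log2 ratio -0.84).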

How the data were processed

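RNA of the 4 libraries was sequenced on an Illumina HiSeq platform after TRIzol extraction, per the labels' protocols. Bowtie2, RSEM and the builds GRCm38.p6 and mm10 are named, per the submitters' processing notes, without versions. The sources used here give no strandedness, read length or annotation, and 36 of the 99 genes overlap another gene. The deposited counts are whole numbers of reads for each gene, without normalization. The authors also deposited FPKM values, and the length implied by count, FPKM and library total was the same in all 4 libraries for 8988 of 8988 well-counted genes (tolerance 0.1%). That length was over 1.5 times the merged exons of GENCODE vM21 for 27 of the 83 members with at least 50 counts in a library (9084 against 4301 bases for Hspa8), so FPKM were not used to compare genes with each other.

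Groups came from the labels. The genes and lists were chosen with earlier results of these data known. Counts were scaled with TMM factors (edgeR 4.0.16, R 4.3.3) of 1.03, 0.852, 1.05 and 1.08 for naive, Th0, Th17 and Treg. Log2 ratios used a pseudocount of 1 CPM, and folds none. Count ratios have 95% exact conditional (Clopper-Pearson) intervals, and levels exact Poisson intervals. All 6 pairs of libraries were compared over the whole table. Members of the HSP90, HSP70, HSP110, chaperonin and heat shock factor groups with at least 10 counts could be named; in other groups, those with at least 10 CPM that were called against Th0 or naive, and the highest of each group. Other names follow a count of 5 or fewer, serve as an overlapping gene or copy, or complete a stated list, and these were chosen after their values were seen. Of the other chaperone genes, those with the 6 largest called ratios were to be named, and 1 of them is not reported here.

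Near-identical copies aligned over at least 300 bases at 95% identity (minimap2 2.31). On simulated data with Poisson counts the calls recovered all 100 genes changed 3-fold and all 100 changed 6-fold in each comparison, and called 1 to 6 unchanged genes. Such counts hold counting error only. Alternatives were library totals, DESeq2 1.42.0 size factors, upper quartile scaling, a pseudocount of 0.25, no count filter, thinning to the smallest library, the authors' FPKM and leaving out genes with copies. Intervals used scipy 1.17.1 (Python 3.11.15, pandas 2.3.3, numpy 2.4.6), and figures matplotlib 3.10.9.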

Additional observations from a re-analysis of the deposited data

How the results depend on the processing

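Of 114 counts of called genes recomputed under an alternative, 103 stayed within 1.5 times the reported count. Counts within that limit could still change the balance of calls. For Th0 over naive, 22 higher and 14 lower became 17 higher and 19 lower with library totals. Leaving out genes with near-identical copies gave 14 higher in Th0 than in naive, 7 lower in Th17 than in Th0, 7 lower in Treg than in Th0 and 0 higher in Th17 than in Treg. The other calls of these comparisons were thus on the genes with copies. The authors' FPKM gave 9 lower in Th17 than in naive, 10 lower in Th17 than in Th0 and 1 higher in Th17 than in Treg. That comparison carried library totals in place of TMM factors, added a pseudocount of 1 FPKM and used no counting interval. The separate part of each of these differences was not tested. Library totals gave 14 higher in Treg than in Th0, where the median of all genes moved from 0.08 to 0.39. A pseudocount of 0.25 CPM gave 4 higher and 1 lower in Th17 than in Treg, and a filter of 10 CPM in 1 of the 2 libraries, chosen after seeing the data, gave 0 higher. Under all 4 scalings the same call was made for 31 of 36 called genes in Th0 over naive, 21 of 26 in Th17 over Th0, 21 of 25 in Treg over Th0, 25 of 28 in Th17 over naive, 21 of 23 in Treg over naive and 2 of 2 in Th17 over Treg. Of 680 recomputed values for single genes and gene ratios, 490 stayed within their counting interval and 190 moved beyond it, none with a change of sign of a called value. No paired analysis was possible because each group had 1 library, and no library could be left out. Depth limits genes under about 10 counts: Hspb1 had 1 count in Treg, and its fold there has a wide interval.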
